A study of Homo sapiens with 40 samples.

Results

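Of the 40 arrays of the series, 4 compared B-cell lymphoma cells that were induced to express shCasp10-2, an shRNA against CASP10, with uninduced cells. They were chosen by their titles, which begin with the name of the line and of the shRNA. The lines were OCI-Ly7 and OCI-Ly19, both diffuse large B-cell lymphoma (DLBCL) lines, with 1 array on day 3 and 1 on day 4 each. The study set these lymphoma lines as a control beside 3 myeloma lines, so the question for them is what the induction did in cells that are not myeloma. On every array the Cy5 channel held RNA of cells given doxycycline at 20 ng/ml for 72 hours (day 3) or 96 hours (day 4). The Cy3 channel held RNA of cells of the same line and day that carried the same retroviral vector and received no doxycycline. Both channels came from puromycin-selected cells, and 50 µg of total RNA was labelled with each dye. Doxycycline and the shRNA were added together, and the series holds no lymphoma array with a control shRNA. The drug and the shRNA therefore cannot be told apart. Neither line has a repeat beyond the pair of days. A p-value for a line, or for the difference of the lines, therefore measures the spread between day 3 and day 4, which may come from a single culture. Those of the lymphoma response and of lymphoma against myeloma measure the spread between time courses, each the mean of its days.

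Caspase-10 is an initiator caspase. It is recruited with caspase-8 by the adaptor FADD to ligand-bound death receptors such as FAS and the TRAIL receptors, and CFLAR, a caspase-like protein without a working active site, controls its activity there. DLBCL is a tumour of mature B cells, and growth of such cells leans on MYC, a transcription factor that raises ribosome production, glycolysis and nucleotide synthesis. The arrays were lymphochips, spotted cDNA arrays built for genes of lymphoid cells. A value is the deposited log ratio of a probe, read as induced over uninduced on the log2 scale, so that 1 is a doubling and 0 no difference. Log ratios carry no expression level, so the lines could not be checked against their B-cell markers.

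The arrays of the lines had very different shapes. The median log ratio was 0.21 on day 3 and 0.07 on day 4 in OCI-Ly7, and 0.01 and -0.01 in OCI-Ly19. On the OCI-Ly7 arrays 2009 of 15246 probes (13.2%) lay above 3 on day 3 and 1212 (7.95%) on day 4, while 17 and 2 lay below -3. On the OCI-Ly19 arrays 18 and 13 probes lay above 3, and 20 and 83 below -3. In OCI-Ly7 the high values formed a separate hump between about 5 and 6.5, whereas the OCI-Ly19 values formed a single peak, with the longer arm on the low side. A high tail was not particular to OCI-Ly7. The myeloma arrays of SKMM1 repeat 3 had 7.48% of probes above 3 on day 3 and 14.25% on day 4. Their day 2 array had 5.48%, and the day 5 array of SKMM1 repeat 2 had 8.53%. In the titles the identifiers of these SKMM1 arrays directly precede those of OCI-Ly7. Every other array of the series had at most 1.27% above 3. The part of the array run in the tail was not tested. The day 3 and day 4 arrays of SKMM1 repeat 2 had a low tail instead, with 23.4% and 10.25% below -3.

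**Figure D1:**
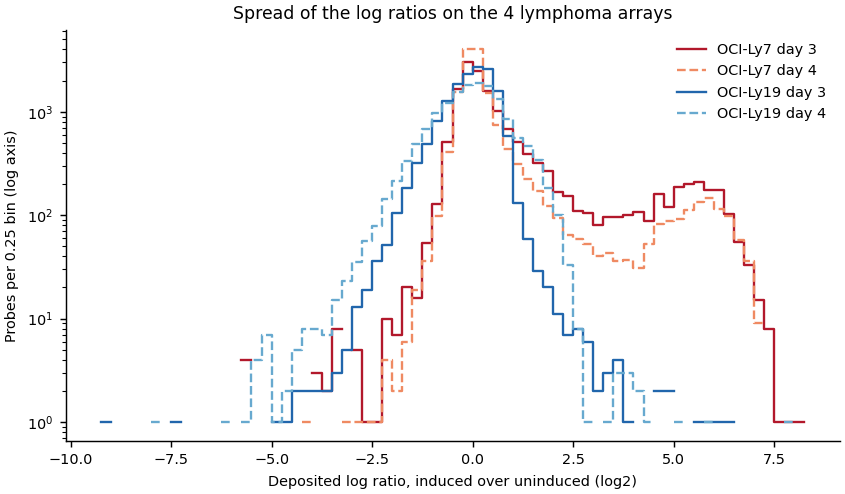
Number of probes per 0.25-wide bin (log axis) against the deposited log ratio (log2) for the 4 arrays, red for OCI-Ly7 and blue for OCI-Ly19, solid for day 3 and dashed for day 4. Both OCI-Ly7 curves carry a separate hump of high values, with 2009 and 1212 probes above 3, and the OCI-Ly19 curves do not.

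The values of that hump repeat. The 2009 probes above 3 on OCI-Ly7 day 3 shared 315 distinct values, and the 1212 probes of day 4 shared 223. Measured from the most frequent value of the array (-0.019 on day 3, held by 328 probes, and 0.109 on day 4, held by 129), most of them stood at the base-2 logarithm of a whole number. This was so, within 0.0015, for 1773 of 2011 probes (88.2%) on day 3 and 1075 of 1187 (90.6%) on day 4 that lay over 3 above the most frequent value. The OCI-Ly19 arrays had few values that high, and 12 of 17 (70.6%) on day 3 and 9 of 13 (69.2%) on day 4 were whole too. The tolerance covers 1.66% of the spacing between whole numbers at a ratio of 8 and 13.3% at a ratio of 64. Of the probes at smaller ratios above it, 5.64% and 5.1% were whole on the OCI-Ly7 arrays. The channel intensities behind the ratios were not analysed here, and the part of low signal in these values was not tested. In all, 2216 probes had such a whole-number ratio on at least 1 OCI-Ly7 array. They are called whole-ratio probes below. Values include them unless the sentence says otherwise.

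The targeted gene was read by 6 CASP10 probes. Their mean log ratio was 2.042 on day 3 and 1.497 on day 4 in OCI-Ly7, and 0.12 and -0.24 in OCI-Ly19. In the arrays labelled OCI-Ly7 CASP10 thus stood above 0 on both days, against the direction that the label implies, and in OCI-Ly19 it stood near 0. Single probes disagreed. In OCI-Ly7 the highest probe read 5.91 on day 3 and 1.07 on day 4, the next 5.30 and 4.75, and the probe lowest on day 3 -0.63 and 0.15. In OCI-Ly19 they ran from -0.70 to 0.88 on day 3 and from -1.98 to 0.76 on day 4. The highest pair in OCI-Ly7 were whole-ratio probes. The mean of the other 4 was 0.26 and 0.79, and with the median of the 6 probes in place of their mean the OCI-Ly7 value was 0.73 in place of 1.77. Neither line passed the limma test across all features, with 1.77 (SE 0.24, adjusted p = 0.22) for OCI-Ly7 and -0.06 (SE 0.27, adjusted p = 0.909) for OCI-Ly19. OCI-Ly7 below stands for the arrays labelled OCI-Ly7, and every direction drawn from them is that of arrays on which the target was not below 0.

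**Figure D2:**
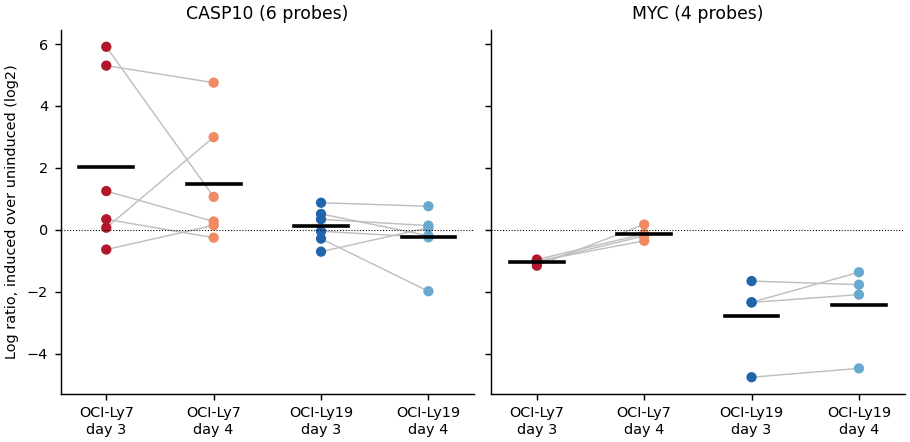
Log ratio (log2, induced over uninduced) of each CASP10 and MYC probe on the 4 arrays; points are probes, grey lines join a probe's day 3 and day 4 values, and black bars are means over probes. The OCI-Ly7 CASP10 points spread from below 0 to 5.91, while all 4 MYC probes lie below 0 on both OCI-Ly19 arrays.

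Across the death receptor pathway 22 of 28 listed genes were measured. Their median over the days was 0.15 in OCI-Ly7 and 0.08 in OCI-Ly19, beside 0.25 and 0.00 for all 4584 named genes, and no member passed the test in either line. Without whole-ratio probes the OCI-Ly7 median was 0.088. CFLAR read 0.12, -0.03, -0.01 and -0.26 on OCI-Ly7 days 3 and 4 and OCI-Ly19 days 3 and 4, the order used for all sets of 4 values below. Its 2 probes disagreed, at -0.50 and 0.75 on OCI-Ly7 day 3 and -0.95 and 0.42 on OCI-Ly19 day 4. The 2 probes of the adaptor FADD averaged -0.02, 0.08, 0.01 and 0.10, but in OCI-Ly19 they disagreed, at -0.56 and 0.57 on day 3 and 0.47 and -0.28 on day 4. Caspase-8 read 0.29, 0.36, 0.30 and 0.73. The receptor FAS read -0.94, -0.25, 0.16 and 0.26, and BCLAF1, a transcription factor that binds BCL2 proteins, 0.34, -0.14, -0.82 and -0.49. On OCI-Ly7 day 3 the 4 FAS probes had a median of -0.40, and the lowest read -2.83. FAS ligand (FASLG) stood apart in the pathway. Its 4 probes averaged 3.58, 3.25, 0.23 and -0.17, and limma called the difference between the lines (3.38, SE 0.33, adjusted p = 0.024). With day as a block limma's adjusted p was 0.073, and the call was lost. Of those probes 3 were whole-ratio probes, and the remaining one read 4.00, 1.48, 0.09 and -0.72. The TRAIL receptor TNFRSF10A, read by 1 probe, was at 5.34, 1.15, 0.09 and -0.25, and that probe was a whole-ratio one too.

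The BCL2 family, which sets the threshold of the mitochondrial death route, had 14 of 17 genes measured. Its median was 0.26 in OCI-Ly7 and 0.12 in OCI-Ly19, with 0 members past the test, and 0.10 in OCI-Ly7 without whole-ratio probes. MCL1, a short-lived survival protein, read -0.27, -0.19, -0.18 and -0.38 over 6 probes. BCL2 read 0.71, 1.20, -0.49 and -0.19 over 7, above 0 in OCI-Ly7 and below 0 in OCI-Ly19. Without its 1 whole-ratio probe it read 0.83, 0.71, -0.62 and -0.31. BAX was above 0 on all 4 arrays, at 0.57, 0.51, 0.48 and 1.03, and PMAIP1, the NOXA death effector, below 0 on all 4, at -0.31, -0.36, -1.01 and -0.61.

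In OCI-Ly19 the clearest pattern lay below 0. Both days were below -1 for 357 of 9681 features (3.69%; 3.16% of named genes) and above 1 for 62 (0.64%). Both days were above 0 for 37.8% of features (35.4% of named genes) and below 0 for 34.6%. At an adjusted p under 0.05 limma called 1 feature (0.0103%), a probe without a gene name here that fell by 4.80 (SE 0.26, adjusted p = 0.013) with -4.66 on day 3 and -4.94 on day 4. Without adjustment 2380 features had p under 0.05, 1039 above 0 and 1341 below. The 5 named genes below 0 with the smallest p were PLOD2, a collagen lysine hydroxylase, NOP56, MYC, ARPC2, a subunit of the actin-branching complex, and the kinase-binding cyclin CCNC, all with an adjusted p of 0.059. PLOD2 read -2.89 and -2.90, ARPC2 -2.41 and -3.04, and CCNC -2.23 and -2.30. The count of calls depended on the treatment of the arrays. It was 772 with each array centred and scaled (214 higher and 558 lower) and 131 with the median of a gene's probes. With 1 array left out, the spread of the lone OCI-Ly19 array is taken from OCI-Ly7, so that count is not given. All 5 genes passed with the scaled arrays and with the median of probes.

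MYC was read by 4 probes, all below 0 on both OCI-Ly19 arrays. They ran from -4.75 to -1.65 on day 3 and from -4.47 to -1.37 on day 4, with means of -2.77 and -2.42. In OCI-Ly7 the same probes ran from -1.15 to -0.96 on day 3 and from -0.35 to 0.18 on day 4. The MYC mean was thus below 0 on all 4 arrays, near -1 on the first OCI-Ly7 array and near 0 on the second, and the difference between the lines did not pass (2.02, SE 0.44, adjusted p = 0.141). NOP56, a core protein of the particles that methylate ribosomal RNA, read -2.69 and -3.54 in OCI-Ly19 and 0.40 and -0.50 in OCI-Ly7.

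Of the other MYC and ribosome biogenesis genes, ODC1, the first enzyme of polyamine synthesis, read -1.21 and -1.83 in OCI-Ly19, and the nucleolar proteins NPM1, NOLC1 and FBL read -1.42 and -1.25, -0.79 and -1.83, and -0.65 and -1.70. LDHA, lactate dehydrogenase A, did not run with them, at 1.21 and -0.29. Of the 13 measured members 9 were below 0 on both OCI-Ly19 arrays, beside 37.1% of all named genes. Their median was -0.57, beside 0.00 for all named genes. In OCI-Ly7 the median was -0.06.

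MYC with its partner MAX binds the E-box CACGTG. A RefSeq promoter (250 bases before to 50 after the start, GRCh38.p14) of ODC1, and likewise of LDHA, holds that motif. Another promoter of each gene does not hold it before the start. The stretch before the start is shown because both genes carry the motif, while their values in OCI-Ly19 differ. Capitals mark the motif, which was searched on both strands.

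ODC1, minus strand, chr2:10448013-10448162: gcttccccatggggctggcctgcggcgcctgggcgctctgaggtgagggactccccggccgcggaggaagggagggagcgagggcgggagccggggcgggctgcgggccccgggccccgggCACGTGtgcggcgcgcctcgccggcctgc

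LDHA, plus strand, chr11:18394363-18394562: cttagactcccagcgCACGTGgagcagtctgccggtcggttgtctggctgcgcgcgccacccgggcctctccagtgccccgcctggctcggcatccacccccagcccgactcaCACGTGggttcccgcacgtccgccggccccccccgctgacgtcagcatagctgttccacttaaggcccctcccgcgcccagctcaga

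The motif lay 29 bases before the start in ODC1, and 185 and 87 bases before it in LDHA. Of all 35116 RefSeq promoters 6.34% hold it before the start, and so do 2 of the 15 promoters of the 11 members found there. A match describes the letters only, and binding was not measured.

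Ribosomal proteins and translation factors, the machinery that MYC-driven growth feeds, gave the lowest median over the days of the lists in OCI-Ly19, at -0.92, with -0.88 on day 3 and -1.02 on day 4. Of 17 measured, 14 were below 0 on both days. RPS3 read -2.10 and -3.70, RPS9 -1.22 and -2.34, and RPS4X -1.57 and -1.74 over 4 probes, while RPL5 read 0.62 and 0.06. In OCI-Ly7 the same list had medians of -0.26 and 0.02. No member passed the test, with adjusted p-values from 0.064 upward in OCI-Ly19.

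Of the 21 measured glycolysis genes 14 were below 0 on both OCI-Ly19 days, with a median of -0.34, and none passed the test. Aldolase A (ALDOA) read -2.58 and -1.99, enolase 1 (ENO1) -1.54 and -2.57, GAPDH -1.51 and -2.41 and phosphoglycerate kinase (PGK1) -1.10 and -2.77. Hexokinase 1 (HK1) read 0.79 and 0.40. In OCI-Ly7 ENO1 read 0.00 and -0.82 and GAPDH -0.40 and -0.47, and the list's median was 0.00. Genes often used as controls were also below 0 in OCI-Ly19. Of the 11 probes of beta-actin (ACTB) 10 were below 0 on both days, with medians of -0.96 and -3.02, and all 10 probes of ferritin light chain (FTL) were, with medians of -1.72 and -3.04. These 2 genes were chosen after their values were seen.

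**Figure D3:**
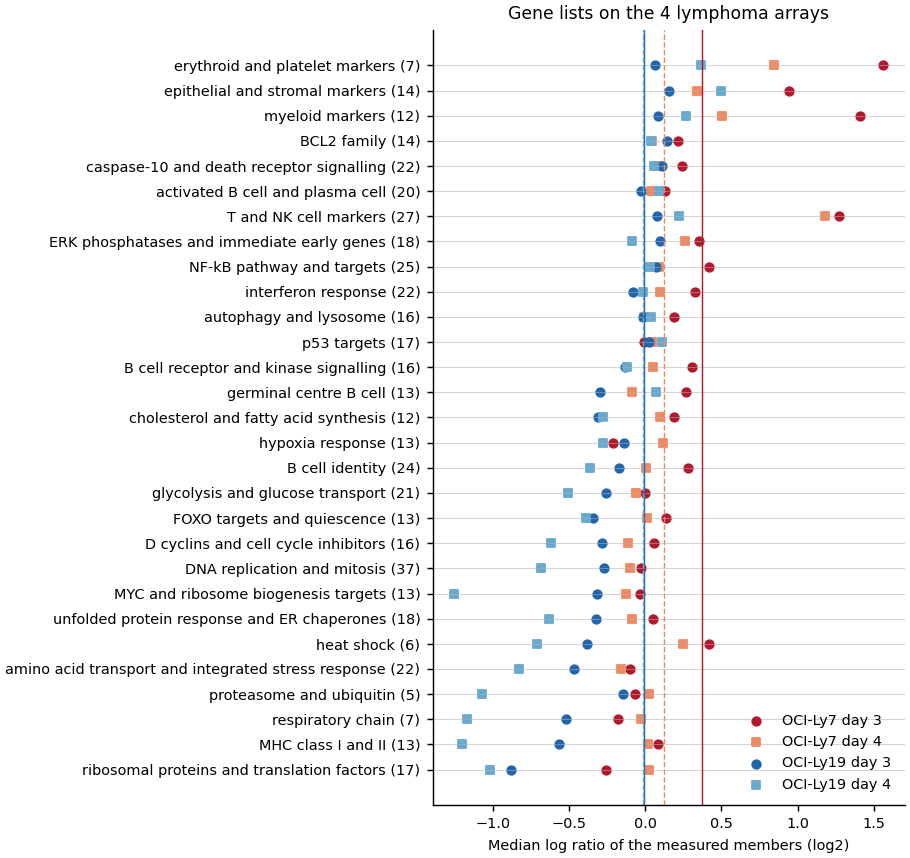
Median log ratio (log2) of the measured members of each gene list with at least 5 of them (number in brackets) on the 4 arrays; vertical lines give the median of all 4584 named genes on each array. The OCI-Ly19 points lie left of 0 for ribosomal, MHC, stress-response and cell-cycle lists, and the OCI-Ly7 points lie far right for the T cell, myeloid and platelet marker lists.

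The integrated stress response raises amino acid synthesis and transport through the transcription factor ATF4. In OCI-Ly19 15 of its 22 measured genes were below 0 on both days, and the list's medians were -0.47 and -0.82. The mitochondrial folate enzymes SHMT2 and MTHFD2 read -1.29 and -2.05 (6 of 6 probes below 0 on both days) and -2.07 and -1.18. Asparagine synthetase (ASNS) read -1.97 and -0.86, and ATF4 itself -0.67 and -0.97. The stress-induced DDIT3 (CHOP) read 0.14 and 0.13, and the amino acid transporter SLC1A4 0.89 and 1.38, so the members did not all lie on one side. In OCI-Ly7 the medians were -0.10 and -0.16.

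An ASNS promoter is shown because it holds the element that ATF4 binds with C/EBP proteins, TGATGNAA, in capitals here. Another ASNS promoter does not hold the element before its start.

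ASNS, minus strand, chr7:97872409-97872558: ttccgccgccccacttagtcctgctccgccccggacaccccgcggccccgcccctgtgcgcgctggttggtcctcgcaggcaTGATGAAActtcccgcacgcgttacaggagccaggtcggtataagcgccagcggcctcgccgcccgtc

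It lies 68 bases before the start. Searched on both strands, the motif stands before the start in 3.14% of all RefSeq promoters and in 4 of the 35 promoters of the 19 members found there, those of ASNS, ATF3, GARS1 and AARS1. In OCI-Ly19 GARS1 and AARS1, the glycyl- and alanyl-tRNA synthetases, read -1.29 and -1.26, and -0.81 and -1.91. ATF3, with the same letters, read -0.09 and -0.19.

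Of the 18 measured genes of the unfolded protein response and its chaperones 13 were below 0 on both OCI-Ly19 days. HSPA5 (BiP) read -1.54 and -1.88 and XBP1, the transcription factor of the secretory programme, -1.14 and -1.29. Of the 37 measured genes of DNA replication and mitosis 26 were below 0 on both days, with medians of -0.27 and -0.68. The helicase subunit MCM7 read -0.58 and -2.11, the ribonucleotide reductase subunit RRM2 -0.98 and -1.58, and PCNA, the sliding clamp of DNA polymerases, -0.85 and -1.29. The checkpoint kinase BUB1 read 1.41 and 1.12 and the proliferation marker MKI67 0.04 and 0.03 over 8 probes. These lists thus held members on either side of 0, and none of their members passed the test in OCI-Ly19.

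No gene of antigen presentation or B-cell identity passed the test in OCI-Ly19. Of the 13 measured MHC genes 12 were below 0 on both days, with medians of -0.56 and -1.20. The class II invariant chain CD74 read -1.26 and -2.23, with 11 of 12 probes below 0 on both days, HLA-DQA1 -1.27 and -1.43 and HLA-DRB1 -1.13 and -1.45. On the OCI-Ly7 arrays HLA-DQA1 read -0.08 and -0.23, and HLA-DRB1 0.13 and -0.09. Of the 24 measured B-cell identity genes 16 were below 0 on both OCI-Ly19 arrays, with medians of -0.17 and -0.36. The scaffold BANK1 read -1.34 and -1.38, VPREB3 -1.42 and -1.20, CD20 (MS4A1) -1.15 and -1.28 and CD79B, a subunit of the antigen receptor, -0.70 and -1.55. The lineage factor PAX5 read 0.19 and 0.06, and the coactivator POU2AF1 0.41 and 0.76. BCL6, the master regulator of germinal centre B cells, read -0.64 and -0.69. Its list did not follow it on both days. Of 13 measured germinal centre genes 6 were below 0 on both OCI-Ly19 arrays, and the medians were -0.30 and 0.07. SERPINA9, of that list, read 0.44 and 1.57. Beside these values, the T and NK cell list had medians of 0.08 and 0.22 in OCI-Ly19 and the myeloid list 0.09 and 0.27. The part of other cell types in the result was not tested.

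The genes highest in OCI-Ly19 by the smallest p included a pair of glutathione-conjugating enzymes, GSTA4 (2.03 and 2.25) and MGST2 (1.82 and 2.07), with adjusted p-values of 0.059 and 0.064. In each, 1 probe carried the value and the other did not. The GSTA4 probes read 4.56 and 4.23 against -0.50 and 0.26, and the MGST2 probes 3.68 and 3.85 against -0.05 and 0.29. The other 3 were LBR, a receptor for lamin B in the nuclear envelope (1.54 and 1.79), the repressor ZEB2 (1.41 and 2.09) and AKAP9, an anchor of protein kinase A (1.27 and 1.72). The ZEB2 probes disagreed as well, at 2.42 and 3.85 against 0.40 and 0.33. In OCI-Ly7 LBR read -0.14 and 0.04.

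In the arrays labelled OCI-Ly7 the values lay mostly above 0. Both days were above 1 for 1374 of 9681 features (14.2%) and below -1 for 2 (0.0207%; 0.0218% of named genes). Both days were above 0 for 51.2% of features. Limma called 0 features at an adjusted p under 0.05 (0%; smallest adjusted p = 0.079), while 1265 had p under 0.05 before adjustment, 1249 of them above 0. In simulated data with the spread of these arrays, 0 of 200 genes changed by 6 were recovered in this fit, so its count of 0 carries little. Of the 1374 features 782 (56.9%) had only whole-ratio probes and 1120 (81.5%) at least 1, beside 12.1% and 19.8% of all features.

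The 5 named genes with the smallest p above 0 each had 1 probe and stood near 6 on both days. They were ABAT, which breaks down the transmitter GABA (6.003 and 6.04), HSPD1, the mitochondrial chaperonin HSP60 (5.93 and 5.97), the inositol kinase IP6K1 (5.89 and 5.92), RAB27A, a GTPase of granule secretion (6.44 and 6.26), and YEATS2, a reader of acylated histones (6.27 and 6.45). All 5 were read by whole-ratio probes, and in OCI-Ly19 they lay between -0.14 and 0.59. Below 0 the gene with the smallest p was CCDC86, a nucleolar protein, at -3.34 and -2.89 (adjusted p = 0.109), with 0.24 and 0.63 in OCI-Ly19. OGDH, LMBRD1, TTC33 and OSBPL8 came next by p, not by size, between -0.90 and -0.63.

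Most markers of cells other than B cells were above 0 on the OCI-Ly7 arrays, and none passed the test there. Of the 27 measured T and NK cell markers 22 were above 0 on both days, with medians of 1.27 and 1.18, beside 53.8% of all named genes and medians of 0.37 and 0.12. Granzyme B (GZMB) read 5.50 and 5.60, CD2 3.68 and 5.28, the T cell receptor partner CD3D 1.57 and 0.46, and LCK, the kinase of that receptor, -0.15 and -0.27. All 12 myeloid markers were above 0 on both days, among them FCGR3A (4.51 and 2.74) and CSF1R (1.66 and 4.28). Of the 7 measured erythroid and platelet markers 5 were above 0 on both days, and of the 14 epithelial and stromal ones 11. Among these were the platelet chemokines PF4 (5.26 and 3.18) and PPBP (2.70 and 5.46) and the epithelial peptide TFF1 (0.87 and 5.86). KLF1 read -0.18 and -0.04. GZMB, CD2, FCGR3A, CSF1R, PF4, PPBP and TFF1 were read by whole-ratio probes alone. Such probes were present in 15 of the 27 T and NK cell genes and 5 of the 12 myeloid ones, beside 25.1% of all named genes. Without them the median over the days was 0.26 in place of 1.27 for the T and NK cell list and 0.38 in place of 0.92 for the myeloid list. It was 0.30 in place of 1.20 for the erythroid and platelet list and 0.33 in place of 0.79 for the epithelial list, and 0.11 in place of 0.25 for all named genes.

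Of the 24 measured B-cell identity genes 11 were above 0 on both of these arrays, beside 53.8% of all named genes. Their medians were 0.28 and 0.00, and without whole-ratio probes 0.14 and -0.02. Some B-cell genes split by probe. PAX5 read 1.62 and 1.78 over 7 probes and 0.90 and 0.26 over the 5 that were not whole-ratio probes. BLK, a kinase of the B-cell receptor, read 2.25 and 1.15 over 5 probes and -0.05 and -0.34 over the remaining 3. CD20 (MS4A1) read -0.38 and -0.25, and CD79A -0.27 and -0.30. The interferon-induced OAS3 read 5.56 and 4.34, whereas OAS1 read 0.17 and 0.11 over 6 probes and ISG15 0.18 and -0.21, and both OAS3 probes were whole-ratio ones. CDKN1A, the p21 inhibitor of cell-cycle kinases, read 2.11 and 3.43 over 3 probes and 0.76 and -0.15 on the single probe that was not a whole-ratio one.

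Between the arrays labelled OCI-Ly7 and those of OCI-Ly19 limma called 362 of 9681 features (3.74%), 361 higher in OCI-Ly7 than in OCI-Ly19 (3.73%) and 1 lower (0.0103%). Named genes were 162 of them. The titles give the arrays of each line identifiers of a separate range, so line and any difference of array run cannot be told apart. The highest differences were JAZF1 (7.21, SE 0.38), a zinc finger protein, the actin bundler FSCN1 (6.94, SE 0.40), ZBTB40 (6.52, SE 0.52), ARHGAP31 (6.43, SE 0.61), which switches off small GTPases, and GTPBP1 (6.42, SE 0.36), with adjusted p-values from 0.013 to 0.023. JAZF1 read 5.98, 6.71, -0.96 and -0.77 and FSCN1 6.19, 6.85, -0.65 and -0.20. Both genes were chosen for a large called difference, so close days and lines that do not overlap follow from the choice. Each was read by 1 probe, a whole-ratio one. The feature called lower was CCDC86 (-3.55, SE 0.35, adjusted p = 0.024).

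Of the 361 features called higher in OCI-Ly7, 284 (78.7%) had only whole-ratio probes and 349 (96.7%) at least 1. Without those probes limma called 0 of 8507 features (1280 before adjustment), and it also called 0 with the arrays scaled and with day as a block. With 1 array left out the spread comes from the other line alone, so those counts are not given. A few called genes had other probes. PLOD2 read -0.59, -0.39, -2.89 and -2.90 (2.41, SE 0.29, adjusted p = 0.036), with the lower values in OCI-Ly19. BANK1 read 1.33, 0.88, -1.34 and -1.38 over 6 probes (2.47, adjusted p = 0.044), and without its 1 whole-ratio probe 0.89, 0.28, -1.50 and -1.25 (1.96, adjusted p = 0.242).

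**Figure D4:**
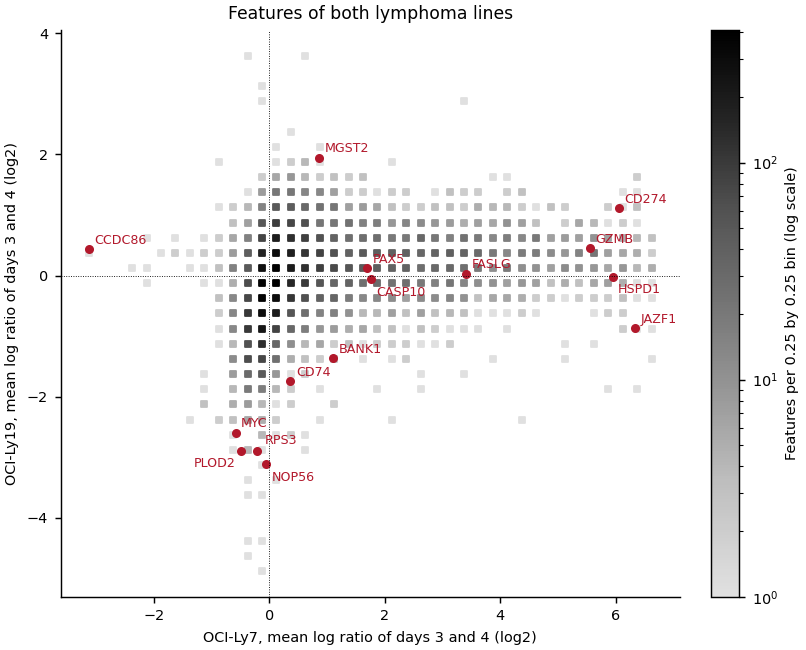
Mean log ratio of days 3 and 4 (log2) in OCI-Ly7 (x axis) and OCI-Ly19 (y axis); grey squares are bins of 0.25 by 0.25 shaded by the number of features on a log scale, and red points are named genes. Features spread along the x axis in OCI-Ly7 and down the y axis in OCI-Ly19, with few high or low in both.

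The arrays of the lines, with the target above 0 on those labelled OCI-Ly7, correlated weakly with each other. Pearson's r over the 15246 probes was 0.57 between the days of OCI-Ly7 and 0.58 between those of OCI-Ly19, and 0.18 to 0.26 between arrays of different lines (Spearman's rho 0.36 to 0.43). These are descriptions across probes, which share arrays and are not replicates. Above 0 on all 4 arrays were 2608 of 9681 features (26.9%) and below 0 on all 4 were 1195 (12.3%). Without whole-ratio probes they were 1856 and 1267 of 8507. Beyond 1 on all 4 there were 3 features above (0.031%) and 1 below (0.0103%). Of the 357 features below -1 on both OCI-Ly19 arrays 231 (64.7%) were below 0 on both OCI-Ly7 arrays, and of the 1819 below 0 on both OCI-Ly7 arrays these were 12.7%. The share below 0 on both OCI-Ly7 arrays was 18.8% of all features. With each array centred on its median 1802 features were below 0 on all 4, and without the wide OCI-Ly7 day 3 array 1977 were below 0 on the other 3.

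Among named genes, 1 (0.0218%) was above 1 on all 4 arrays, ZNF653, a zinc finger repressor, with 5.91, 1.60, 1.88 and 1.25. ZSCAN18, also a zinc finger protein, read 1.504, 1.85, 0.99 and 2.24, and TDRD9, a helicase of the piRNA pathway, 1.02, 1.04, 0.91 and 1.25. The pancreatic elastase CELA3A read 2.41, 0.99, 1.14 and 1.14, and the death receptor TNFRSF25 3.06, 0.92, 1.02 and 1.02. The immune checkpoint ligand CD274 (PD-L1) read 6.19, 5.94, 0.81 and 1.41 and the transcription factor BATF3 6.003, 6.84, 0.81 and 2.20. The list was completed by DUSP3, CXCR3 and CCDC125, between 0.84 and 6.15. Of these 10 genes ZSCAN18 and TDRD9 had no whole-ratio probe. Without theirs, CELA3A read 1.38, 1.34, 0.39 and 2.13, and TNFRSF25 0.29, 0.34, 1.68 and 1.73, each on 1 probe. In ZSCAN18 and TDRD9 the OCI-Ly7 and OCI-Ly19 values overlapped.

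The 10 genes furthest below 0 on all 4 arrays were lower in OCI-Ly19 on average. None had a whole-ratio probe, which follows largely from the definition, because such a probe is high on an OCI-Ly7 array. The lipid transfer protein OSBPL8 read -0.63, -0.64, -2.54 and -1.85, and USP1, the deubiquitinase that acts on PCNA and FANCD2, -0.72, -0.60, -1.25 and -0.77. The membrane protease ADAM9 read -0.78, -0.54, -1.17 and -0.81, and the pyrimidine kinase CMPK1 -0.52, -0.56, -1.30 and -1.05. Cytochrome c (CYCS), the electron carrier that activates caspases once released, read -0.53, -0.56, -0.50 and -1.30. HS2ST1, CCN5, C3orf62, HDAC9 and EVI2B lay between -2.70 and -0.49. Fitted over both lines, the lymphoma response had 0 features called (0%; 836 before adjustment, and the smallest adjusted p = 0.242).

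**Figure D5:**
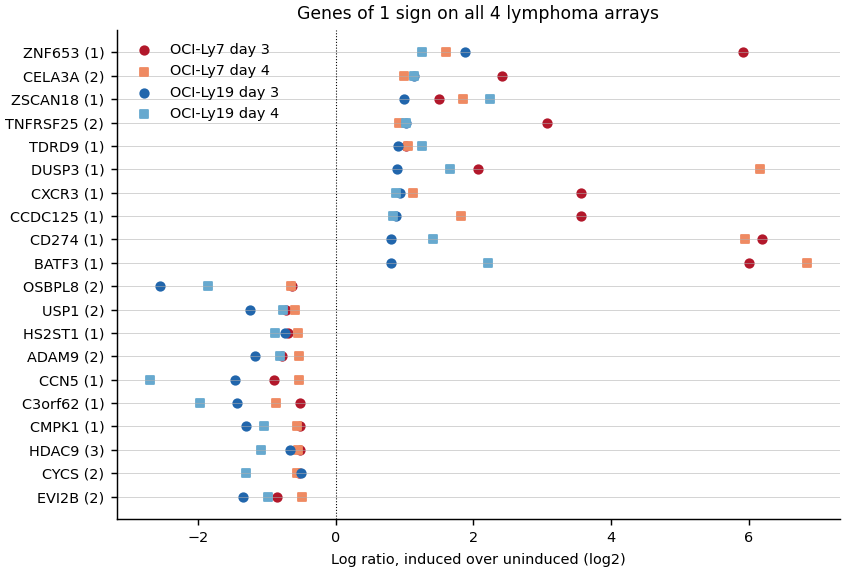
Log ratio (log2) on the 4 arrays of the 10 named genes furthest above 0 and the 10 furthest below 0 on all 4 arrays, with the number of probes in brackets. Among the upper genes OCI-Ly7 values reach 6.84, while the lower genes keep within -2.70.

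Against the myeloma lines SKMM1, H929 and KMS12 at the same days (8 time courses, 16 arrays, uninduced cells in Cy3), limma called 0 of 9681 features (0%; 654 before adjustment, and the smallest adjusted p = 0.639). In simulated data 167 of 200 genes changed by 6 and 29 of 200 changed by 2 were recovered in this fit. H929 and KMS12 each had a course with another shRNA against CASP10, shCasp10-3, and the other myeloma courses carried shCasp10-2. With only the courses of shCasp10-2 limma called 0 features too (245 before adjustment). CASP10 averaged -0.38 over the myeloma lines and was below 0 in 7 of 8 courses, and the difference did not pass (1.24, SE 0.48, adjusted p = 0.639). Of the genes nearest to the threshold, ZSCAN18 was higher in lymphoma by 1.81 (SE 0.33) and ID1, an inhibitor of differentiation factors, by 1.20 (SE 0.24). CCNG1, a cyclin induced by p53, was lower, at -0.67, -0.03, -2.27 and -2.04 against 0.15 to 0.86 in the 8 myeloma courses (-1.65, SE 0.45). PLOD2 (-1.88, SE 0.565) and CCNC (-1.48, SE 0.44) were lower too. MYC, whose p was larger than theirs, was also lower, with a myeloma mean of -0.07 and courses from -0.29 to 0.66 (-1.52, SE 0.51). Its mean was -0.58 in OCI-Ly7 and -2.60 in OCI-Ly19. Each of these had an adjusted p of 0.639.

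The arrays labelled OCI-Ly7 ran against some myeloma arrays. Pearson's r of the mean of their days was -0.47 with KMS12 carrying the same shRNA and -0.40 with SKMM1 repeat 2, but 0.54 with SKMM1 repeat 3. The labels state the same dyes for all of them, and the ratios were kept as deposited. With the sign of OCI-Ly7 turned, limma still called 0 features in the lymphoma response (224 before adjustment) and 0 in the difference from myeloma (154). Without the OCI-Ly19 course it called 91 features in the lymphoma response, 89 of them higher, and 82 in the difference, 81 of them higher. These calls then rest on the OCI-Ly7 course alone, whose lone value was assumed to vary as the myeloma courses do.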

How the data were processed

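The deposited values are log ratios per probe on the log2 scale, 15246 probes by 40 arrays with 0 missing. Per the labels, Cy5 held induced and Cy3 uninduced cells. The sources used here do not give the background correction, normalization, base or direction of the ratio. Base 2 is read from the values: on the OCI-Ly7 arrays the commonest value from 1 to 3 lies 1.585 above the commonest of all, a ratio of 3. The direction, Cy5 over Cy3, is likely. All arrays share 1 dye orientation, so each response includes any dye bias, and signal over background is unknown.

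Of the probes, 10169 had 1 gene symbol, 4 had several, and 5073 are unnamed here. Entrez IDs of 10128 matched RefSeq (GRCh38.p14). Probes of a gene were averaged, which gave 9681 features, 4584 of them named human genes, 2666 with several probes.

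Limma 3.58.1 (lmFit, eBayes; R 4.3.3) was run with Benjamini-Hochberg adjustment over all features at 0.05. It fitted each line against 0, the difference of the lines, and course means of days 3 and 4 for lymphoma against myeloma. The myeloma courses were 3 of SKMM1, 3 of H929 and 2 of KMS12. An H929 and a KMS12 course carried shCasp10-3, and all others shCasp10-2. The labels mark no separate cultures, so the spread behind a p-value may be technical. The fits were tested on simulated data. Named genes were the measured death receptor genes and, per line, the 2 members with the largest absolute mean in each of 30 lists. They also included the 5 with the smallest p per direction and comparison (where 5 or more passed, the largest estimates). The 10 furthest from 0 in each direction with 1 sign on all 4 arrays were named too. Others were chosen after their values were seen. Members and lists were chosen with earlier results of these data known. An array is called wide where over 10% of probes lie beyond 3. Of the 20 arrays of days 3 and 4, 5 were wide, 1 of them lymphoma (OCI-Ly7 day 3). Leaving out whole-ratio probes was added after seeing the data. A probe was dropped on all arrays if its ratio was whole and high on either OCI-Ly7 day, so mostly high OCI-Ly7 values were removed, but also the probe's other values. Alternatives were centring, centring with scaling, probes not averaged, medians of probes, a common spread and day as a block. Further ones were the course as a random block, only courses with shCasp10-2, arrays or courses left out, and the turned sign.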

Additional observations from a re-analysis of the deposited data

Results flagged for a closer look

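In limma's test of OCI-Ly7 minus OCI-Ly19, under the same induction, line and array run cannot be told apart. The test passed for 21 genes named by the rules, each a difference between the arrays of the lines. Of these, 17 were read only by whole-ratio probes: JAZF1 (7.21), FSCN1 (6.94), ZBTB40 (6.52), ARHGAP31 (6.43), GTPBP1 (6.42), YEATS2 (6.22), HSPD1 (5.98), ABAT (5.88), RAB27A (5.76), IP6K1 (5.61), GZMB (5.10), CD274 (4.96), BATF3 (4.91), FDPS (4.74), OAS3 (4.26), DNAJC3 (3.65) and DUSP4 (3.63). FDPS, an enzyme of the cholesterol route, read 4.30, 4.92, -0.34 and 0.08. The 2 probes of DUSP4, an ERK phosphatase, disagreed between days in OCI-Ly7, at 5.57 and 0.37 and at 1.63 and 6.78, and those of DNAJC3, a chaperone of the endoplasmic reticulum, read 3.57 and 0.55, and 3.79 and 5.24.

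The other 4 were FASLG (3.38), BANK1 (2.47), PLOD2 (2.41) and CCDC86 (-3.55). They kept their direction without the whole-ratio probes, at 3.05, 1.96, 2.41 and -3.55, and none passed then (adjusted p from 0.234 to 0.26).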

How the results depend on the processing

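Limma's count of features past the threshold moved as follows. In OCI-Ly7 it was 0, and 756 with a common spread for both lines (755 higher). It was 1224 to 2285 with 1 array left out, where the lone array was assumed to vary like OCI-Ly19. In OCI-Ly19 the count was 1, and 772 with scaled arrays, 492 with probes not averaged and 131 with medians of probes. It was 378 without whole-ratio probes (57 higher, 321 lower) and 0 with a common spread. Between the lines it was 362, and 556 with probes not averaged, 0 with scaled arrays, with day as a block and without whole-ratio probes, and 0 to 1946 with 1 array left out. For the lymphoma response and the difference from myeloma it was 0, and 0 to 91 and 0 to 82 with 1 course left out. Features below 0 on all 4 arrays, 1195, became 1802 with centring, 1977 without the wide array and 2224 with probes not averaged. The OCI-Ly7 mean of CASP10, 1.77, became 0.73 with the median of probes and 0.52 without whole-ratio probes. The cause was not tested, except that leaving out whole-ratio probes mostly removes high OCI-Ly7 values by construction.

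Turned in sign were OCI-Ly7 values that had not passed. With medians of probes these were UBE2C (-0.28), NAMPT (-0.12) and GARS1 (-0.027). Without whole-ratio probes they were BLK (-0.20), RGS13 (-0.22), PLCG2 (-0.082), UBE2C (-0.38), NAMPT (-0.15) and GARS1 (-0.20). With 1 array left out UQCRC2 ranged from -0.67 to 2.49, H2BC12 from -0.90 to 0.0335 and GARS1 from -0.20 to 1.20. The 67 genes named for OCI-Ly19 kept their direction in every setting that gave a value. Leaving out whole-ratio probes left 2 of them without a probe.

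No paired analysis was possible because the lymphoma labels carry no repeat number; the day, which both lines share, was used as a block for their difference, and the 21 named calls were all lost with it. With no intensities, signal over background limits every value by an unknown amount.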
